A study of Mus musculus with 6 samples.

Results

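The genes described here encode the proteasome: every gene of the table whose symbol begins with Psma, Psmb, Psmc, Psmd, Psme, Psmf or Psmg and ends in a number, with or without a letter. The interferon-inducible Psmb8 and Psmb9 were left out by that rule and are given only for comparison. The rule used no measured value and found 47 of the 22984 genes listed: 17 of the core particle, 17 of the regulatory particle, 6 activators or inhibitors and 7 assembly factors. The cells, BMSCs, are mesenchymal stem cells of mouse bone marrow, adherent stroma with the capacity to become osteoblasts, adipocytes and chondrocytes. There were 3 libraries of genotype Grx2+/+ and 3 of genotype Grx2-/-, and the design compares the genotypes with no other treatment named. Grx2 is glutaredoxin 2, a largely mitochondrial enzyme that reduces disulfides with glutathione, encoded by Glrx2. The sources used here do not give the kind of knockout allele, the age of the animals, the culture conditions or whether each replicate is its own animal or culture. The p-values therefore speak of the spread among these 6 libraries alone. Levels are FPKM (fragments per kilobase of a gene's length, divided by library depth), listed in the order of replicates 1, 2 and 3. Fold changes are Grx2-/- over Grx2+/+ as log2(FPKM + 1) ± SE with n = 3 per group, tested with limma and called at a Benjamini-Hochberg adjusted p under 0.05 over all tested genes.

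The proteasome is the main protease of the cytosol and nucleus for proteins tagged with ubiquitin. Alpha and beta subunits stack into a barrel, the core particle, whose catalytic beta subunits cut peptide bonds inside the chamber. The regulatory particle binds the end of the barrel, recognises ubiquitin, removes it, and feeds the unfolded protein in with a ring of ATPases. Other caps (the PA28 and PA200 activators) open the barrel without ubiquitin, and dedicated chaperones assemble its parts. When proteasomes fall short, the transcription factor NRF1 (Nfe2l1) is known to raise transcription of nearly all constitutive subunits together, and NRF2 (Nfe2l2) can raise some of them under oxidative stress.

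Depth was 40797879 to 41794919 reads per library, and Glrx2 stood at 3.57, 3.74 and 3.54 FPKM in the Grx2+/+ libraries against 0.00461, 0 and 0 in the Grx2-/- libraries. Grx2+/+ replicate 2 and Grx2-/- replicate 1 stood furthest from the rest of their groups, and without both of them 31 proteasome genes rose and 4 fell, against 29 and 4 with all libraries. Stromal markers were present in all libraries, with summed levels of 7393 to 8410 FPKM over 12 genes in Grx2+/+ and 4871 to 5607 in Grx2-/-. Most of that sum is Col1a1 and Col1a2, at 3757 and 3427 FPKM in Grx2+/+ and 2164 and 1850 in Grx2-/-. Of the 12 genes 5 rose and 6 fell. Thy1 rose 14.1-fold and Ly6a 6.29-fold, the largest rises, and Nt5e fell 5.17-fold, the largest fall. Markers of other cells moved with genotype. The 10 neutrophil markers summed to 917.5 to 2660 FPKM in Grx2+/+ and to 4.38 to 6.79 in Grx2-/-, where Ly6g and Retnlg were at 0. The 12 macrophage markers, none at 0 in either group, summed to 1544 to 1666 FPKM in Grx2+/+ and to 2523 to 3427 in Grx2-/-. Most of that sum is Lyz2, at 1195 FPKM in Grx2+/+ and 2085 in Grx2-/-. Of these 12 genes 11 rose (91.7%, against 42.7% of all tested genes). C1qa, at 48.1 FPKM in Grx2+/+ and 40.15 in Grx2-/-, did not pass. The 10 endothelial markers summed to 34.5 to 40.7 FPKM against 12.8 to 13.2, with Tie1 and Cldn5 at 0 in Grx2-/-. Eng, also counted as a stromal marker, made up 11.8 FPKM of the Grx2-/- sum, and the other 9 genes were each under 1 FPKM there. Tek alone of these was higher in Grx2-/-, at 0.609 against 0.265 FPKM. The 7 lymphoid and 6 erythroid markers in the table stayed under 1 FPKM each in all libraries. The part of these cells in the differences below was not tested, and in bulk RNA a change in the number of cells of a type and a change in RNA per cell cannot be told apart.

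On the values as deposited, proteasome transcripts were modestly higher in the Grx2-/- libraries. Of the 45 genes with a mean of at least 1 FPKM, 29 rose, 4 fell and 12 did not pass the test. Across all 11083 tested genes 42.7% were called higher, 24.6% lower and 67.4% in either direction, so a single call is common here. The proteasome genes had 64.4% called higher and 8.89% lower. Their median log2 fold change was 0.16, against 0.09 over all tested genes. The changes were also small: none of the 45 changed by 1 or more on the log2 scale, while 1113 of all tested genes did. The median size of change was 0.17 against 0.24. Psma8, with a mean under 1 FPKM and so not among the 45, differed more and is given below. Groups did not overlap for 35 of the 45 genes, 77.8%, against 73.1% of all tested genes.

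The count of rises depended on how the libraries were scaled. Median-of-ratios scaling, which sets each library's median ratio to a common reference to 1, left 14 proteasome genes higher and 6 lower. Quantile normalization, which gives every library the same distribution of values, left 11 higher and 6 lower. The median over all tested genes was then 0.01 and -0.03, down from 0.09, and 34.3% and 30.8% of all tested genes were called higher, with 32.2% and 35.6% lower. The proteasome median was 0.07 and 0.04, still above that of all tested genes. Under both scalings, the share of the 45 proteasome genes called higher was below that of all tested genes. The share called lower was also below it. The 14 genes whose call held under each of 17 alternative settings were Psma6, Psmb4, Psmb5, Psmb10, Psmd1, Psmd9, Psme1, Psme2, Psme2b and Psmg4, which rose, and Psma7, Psmc6, Psmd8 and Psme4, which fell.

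**Figure D1:**
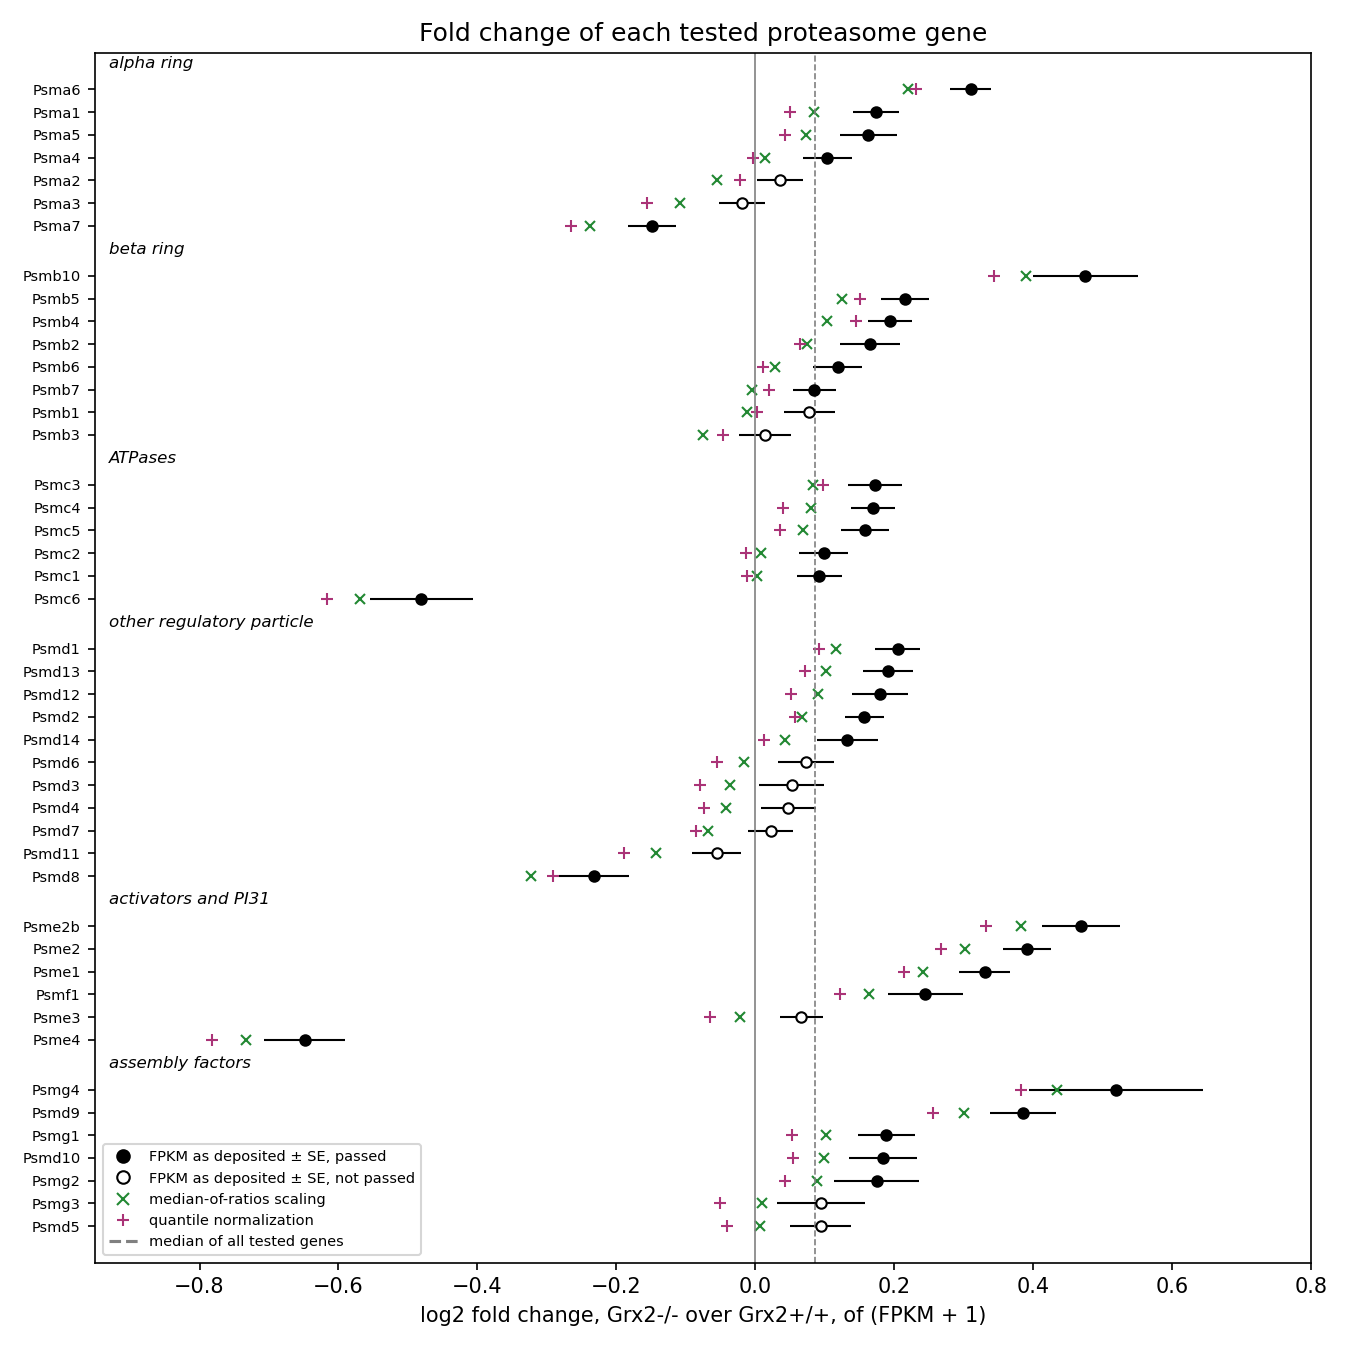
Log2 fold change (Grx2-/- over Grx2+/+, of FPKM + 1) of the 45 tested proteasome genes by role, with the SE as bars; filled circles passed the test, crosses and plus signs are the same value after median-of-ratios scaling and quantile normalization, and the dashed line is the median of all tested genes at 0.09. Most genes lie between 0 and 0.3, Psmc6 and Psme4 lie furthest to the left at -0.48 and -0.65, and both other scalings move each point leftward.

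The constitutive core subunits were among the most abundant of these transcripts, with a median of 112.5 FPKM over 14 genes in Grx2+/+ and 125.6 in Grx2-/-. Regulatory particle genes had a median of 73.3 FPKM in Grx2+/+ and 80.6 in Grx2-/-. Assembly factors were scarcer, at 15.9 FPKM and 18.1. Levels within the core were not equal even though each subunit is used at the same number of copies: Psma2 stood highest at 156 FPKM in Grx2+/+ and Psma3 lowest at 36.7. The table implies a length of 3325 bases for Psma3, whose coding part is 768 bases, and its 4917 to 5150 reads in Grx2+/+ libraries fell within the range of the other alpha subunits. In reads the alpha ring spanned 1.69-fold from the lowest to the highest mean, against 4.25-fold in FPKM.

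**Figure D2:**
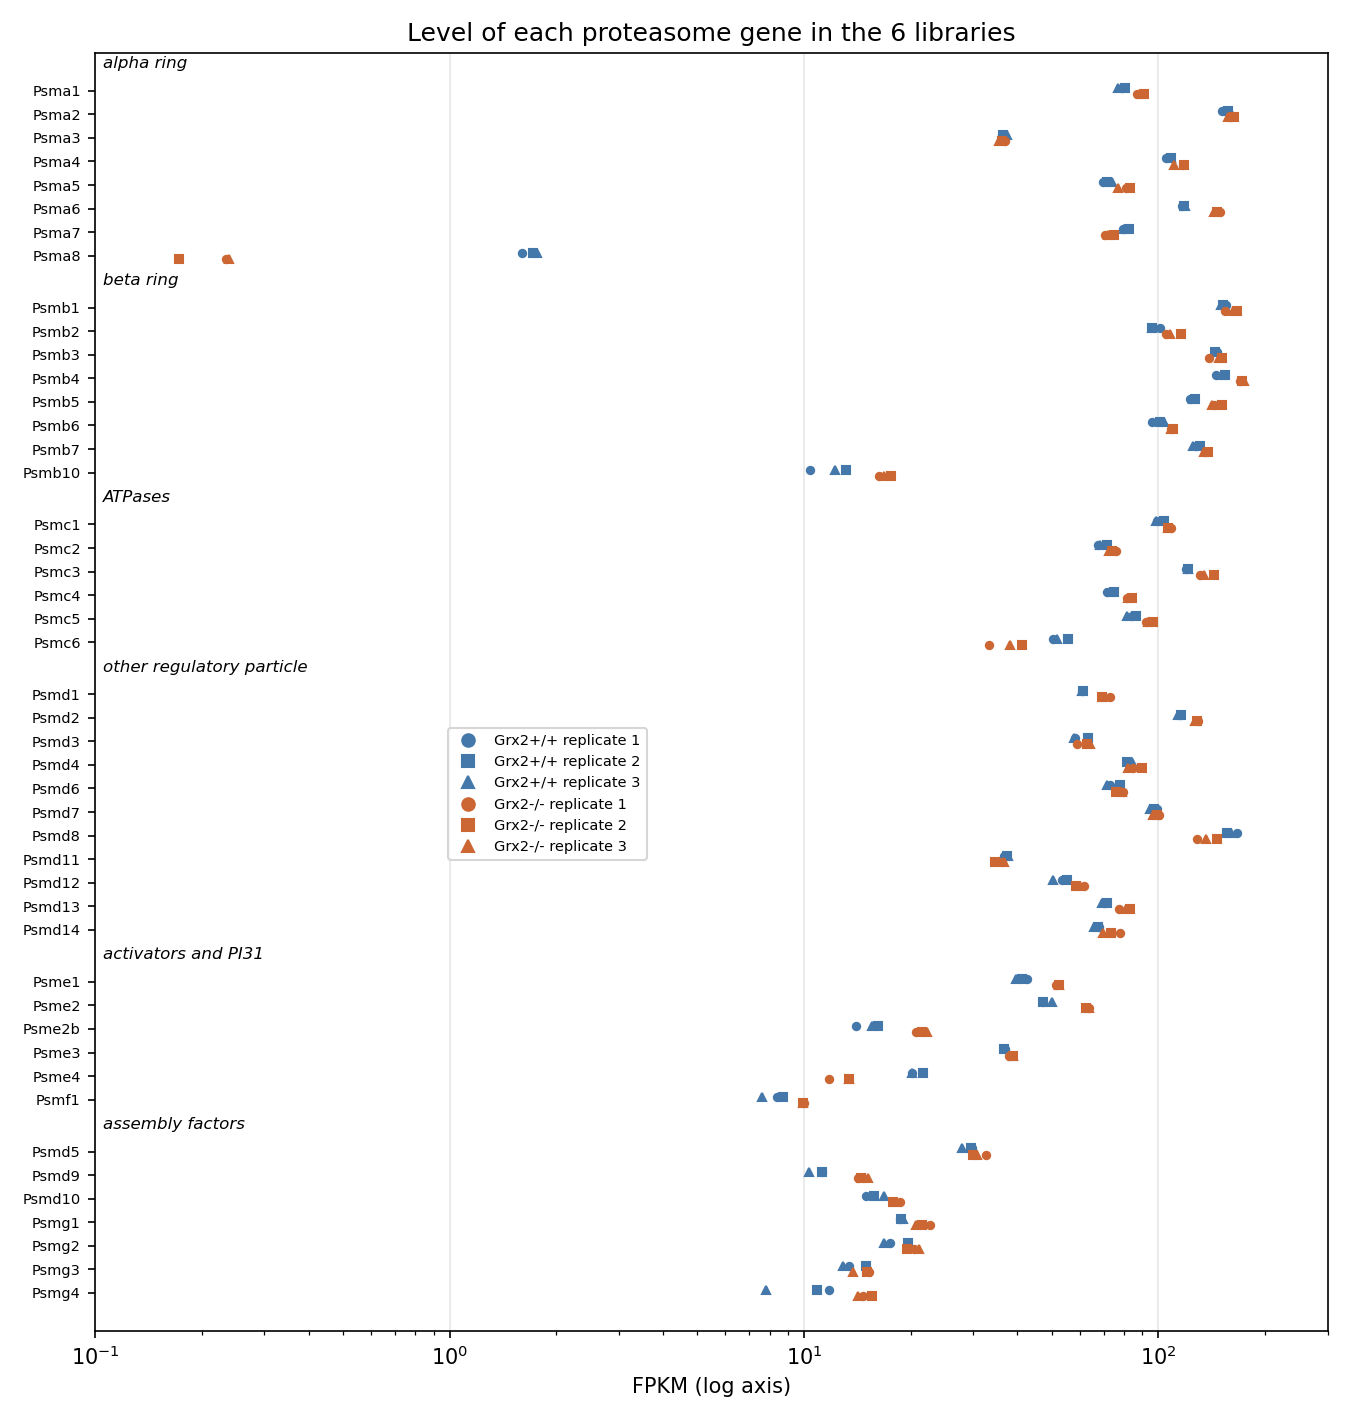
FPKM on a log axis of 46 proteasome genes in the 3 Grx2+/+ libraries (blue) and the 3 Grx2-/- libraries (orange), with a marker shape for each replicate; Psmb11, with 1 read in all, is not drawn. Core and regulatory particle genes cluster around 100 FPKM, and Psma8 is the gene with the widest gap between the groups, with 1.60 to 1.77 FPKM in Grx2+/+ and 0.173 to 0.238 in Grx2-/-.

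In the core particle, 10 of 15 tested genes rose (66.7%) and 1 fell (6.67%), against 42.7% and 24.6% over all tested genes. The other 4 did not pass, and the median log2 fold change was 0.12. With median-of-ratios scaling 5 rose, 2 fell and the median was 0.03, and after quantile normalization 4 rose, 2 fell and the median was 0.02. Under these scalings 34.3% and 30.8% of all tested genes were called higher, and 32.2% and 35.6% lower. Summed over the 14 constitutive subunits, the level was 1532, 1561 and 1548 FPKM in Grx2+/+ and 1657, 1717 and 1661 in Grx2-/-. All Grx2-/- sums lay above all Grx2+/+ sums. The mean rose from 1547 ± 14.8 to 1679 ± 33.6 FPKM (SD, n = 3), a difference of 8.50%, with an exact permutation p of 0.1, two-sided, the smallest that 3 against 3 libraries can give. With median-of-ratios scaling the log2 difference of the sums was 0.03, against 0.12 on the deposited values, with an exact permutation p of 0.3.

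The alpha ring forms the gate of the barrel. Of its 7 tested genes 4 rose (57.1%) and 1 fell (14.3%), against 42.7% and 24.6% over all tested genes, and 2 did not pass. Psma6 rose most, from 117, 118 and 118.5 FPKM in Grx2+/+ to 149, 147 and 143 in Grx2-/-. Its groups were well apart, with a log2 fold change of 0.31 ± 0.03 and an adjusted p of 3.80e-05 by limma. Psma7 went the other way, from 79.2, 82.4 and 79.7 FPKM to 70.5, 74.8 and 72.1. Every Grx2-/- library was below every Grx2+/+ library, with a log2 fold change of -0.15 ± 0.03 and an adjusted p of 0.00558 by limma. Psma1, Psma4 and Psma5 rose by 0.10 to 0.17 on the log2 scale, and Psma2 and Psma3, at 0.04 and -0.02, did not pass. The rise of Psma1 did not pass with quantile normalization, and those of Psma4 and Psma5 did not pass with either other scaling. Psma4 also did not pass without Grx2+/+ replicate 1 or 3 or Grx2-/- replicate 1 or 2, with adjusted p by limma of 0.0580 to 0.102.

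Psma8 encodes an alpha subunit known from the testis, where it takes the place of Psma7 in the core of germ cells. It was not tested, because its mean over the libraries was just under 1 FPKM. Its levels were 1.60, 1.71 and 1.77 FPKM in Grx2+/+, from 147, 159 and 165 reads, and 0.234, 0.173 and 0.238 in Grx2-/-, from 22, 16 and 22 reads. The Grx2+/+ libraries were all far above the Grx2-/- libraries. The ratio of Grx2+/+ to Grx2-/- was 7.88, with an exact 95% interval of 6.02 to 10.5 from the summed reads that covers counting error only. When the filter on low values was dropped, the log2 fold change was -1.15 ± 0.05 with an adjusted p of 2.30e-05 by limma. As a share of Psma7 and Psma8 together, Psma8 was 2.06% ± 0.10 in Grx2+/+ and 0.297% ± 0.06 in Grx2-/- (SD, n = 3). The coding sequences of Psma7 and Psma8 are identical at 74.8% of aligned bases, with a longest identical run of 17 bases.

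The beta ring holds the active sites. Of its 8 tested genes 6 rose, none fell and 2 did not pass. Psmb5, the chymotrypsin-like site, stood at 122.6, 127 and 125.5 FPKM in Grx2+/+ and 144, 151 and 141 in Grx2-/-. The groups were separate, with a log2 fold change of 0.22 ± 0.035 and an adjusted p of 0.000816 by limma. Psmb6, the caspase-like site, had 95.9, 101 and 103 FPKM against 108, 109.8 and 108. The gap between its groups was narrow, and the log2 fold change was 0.12 ± 0.04 with an adjusted p of 0.0175 by limma. Psmb7, the trypsin-like site, had 128, 131 and 125 FPKM against 135, 138 and 134. It was higher in each Grx2-/- library than in any Grx2+/+ library, by a log2 fold change of 0.09 ± 0.03 with an adjusted p of 0.0387 by limma.

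Of these catalytic subunits only Psmb5 held its call in all 17 alternatives. The adjusted p of Psmb6 by limma was 0.0633 without Grx2+/+ replicate 1 and 0.0515 without Grx2-/- replicate 3. That of Psmb7 was 0.0930 and 0.157 without Grx2+/+ replicates 1 and 3, and 0.0965 and 0.0791 without Grx2-/- replicates 2 and 3. With median-of-ratios scaling Psmb6 was at 0.03 and Psmb7 at -0.0047, neither called. Psmb3, a structural subunit, had the smallest change of the ring, with 146, 145 and 143.5 FPKM in Grx2+/+ and 139, 151 and 148.5 in Grx2-/-. Its groups overlapped, and the log2 fold change of 0.01 ± 0.04 did not pass (adjusted p = 0.75 by limma). Psmb2 and Psmb4 rose by 0.17 and 0.19 on the log2 scale, and Psmb1, at 0.08, did not pass. The rise of Psmb2 did not pass with either other scaling.

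Psmb10 is the inducible trypsin-like subunit, which takes the place of Psmb7 in the immunoproteasome, the form that favours peptides for MHC class I. It stood at 10.4, 13.1 and 12.2 FPKM in Grx2+/+ and 16.3, 17.6 and 16.8 in Grx2-/-. Groups were separate, with a log2 fold change of 0.48 ± 0.08 and an adjusted p of 0.000759 by limma, the largest among the tested core genes. Psmb10 also rose relative to its constitutive counterpart. The ratio of Psmb10 to Psmb7 was 0.0931 ± 0.0101 in Grx2+/+ and 0.124 ± 0.0035 in Grx2-/- (SD, n = 3), 1.34-fold higher, with an exact permutation p of 0.1, two-sided, the smallest possible.

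Psmb8 and Psmb9, the inducible counterparts of Psmb5 and Psmb6 that lie outside the rule, moved further. Psmb8 went from 8.56, 11.1 and 9.31 FPKM to 19.9, 24.2 and 22.2, a log2 fold change of 1.12 ± 0.10 with an adjusted p of 2.40e-05 by limma. Psmb9 went from 1.70, 2.01 and 1.70 FPKM to 6.38, 6.17 and 6.37, a log2 fold change of 1.38 ± 0.06 with an adjusted p of 4.74e-07 by limma. Both groups were wide apart for each gene. Relative to its counterpart, Psmb8 went from 0.0772 to 0.152 of Psmb5, a ratio 1.97-fold higher, and Psmb9 from 0.0180 to 0.0580 of Psmb6, a ratio 3.23-fold higher. Even so, per length each inducible subunit stayed below its constitutive counterpart in every library. The wider list of 8 genes for the immunoproteasome and peptide loading had 7 tested members. All 7 rose, against 42.7% of all tested genes. Among them were B2m, the light chain of MHC class I, by 0.92 and Tap1, a peptide transporter subunit, by 1.09 on the log2 scale. With either other scaling 6 of the 7 rose, since Erap1, a peptidase that trims peptides for loading, did not pass (adjusted p = 0.0572 and 0.1298 by limma). Of 10 tested interferon genes 9 rose, with a median log2 fold change of 1.00 over the 10, and Irf1 fell by 0.14 on the log2 scale. With either other scaling 8 rose. Irf1 did not pass without Grx2+/+ replicate 1 or 2 or Grx2-/- replicate 2 or 3, with adjusted p by limma of up to 0.0980. Macrophages are also rich in immunoproteasome transcripts, and the macrophage marker sums given above were higher in every Grx2-/- library, 2523 to 3427 against 1544 to 1666 FPKM. Their part in the rise of Psmb8, Psmb9 and Psmb10 was not tested. Psmb11, the thymus-specific beta subunit, had 1 read, in Grx2+/+ replicate 2.

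In the regulatory particle 10 of 17 genes rose (58.8%) and 2 fell (11.8%), against 42.7% and 24.6% over all tested genes. The other 5 did not pass, and the median log2 fold change was 0.10, close to the 0.09 of all tested genes. With median-of-ratios scaling 3 rose, 3 fell and the median was 0.01, and after quantile normalization 2 rose, 3 fell and the median was -0.01. Under these scalings 34.3% and 30.8% of all tested genes were called higher. The summed FPKM of the regulatory particle was 1376, 1399 and 1361 FPKM in Grx2+/+ and 1429, 1467 and 1429 in Grx2-/-. The groups did not overlap. The means, 1379 ± 19.3 and 1442 ± 22.0 FPKM (SD, n = 3), differed by 4.58%, with an exact permutation p of 0.1, two-sided, the smallest possible. With median-of-ratios scaling the direction turned, to a log2 difference of -0.0261 with an exact permutation p of 0.3. The ratio of the regulatory to the core particle sum does not depend on a scale factor. It went from 0.891 ± 0.010 to 0.859 ± 0.004, with each Grx2-/- library below each Grx2+/+ library and an exact permutation p of 0.1. The regulatory sum includes the 2 genes that fell. Psmd8 went from a mean of 160.9 to 137 FPKM and Psmc6 from 52.55 to 37.5. The ratio without these genes was not computed, so its fall is not shown for the regulatory particle as a whole.

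The ATPase ring unfolds substrates, and its 6 subunits sit in a fixed order in each ring. Of the 6 genes 5 rose (83.3%), by 0.09 to 0.17 on the log2 scale, and 1 fell (16.7%), against 42.7% and 24.6% over all tested genes. Psmc3, with the largest rise, had 119.8, 121 and 121 FPKM in Grx2+/+ and 131, 144 and 135 in Grx2-/-. Its groups were separate, with a log2 fold change of 0.17 ± 0.04 and an adjusted p of 0.00465 by limma. Psmc6 fell, from 50.5, 55.5 and 51.6 FPKM to 33.3, 41.1 and 38.0. All Grx2-/- libraries were below all Grx2+/+ libraries, replicate 1 the lowest, with a log2 fold change of -0.48 ± 0.07 and an adjusted p of 0.00063 by limma.

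Psmc6 was already the least abundant ATPase transcript per length in Grx2+/+ and stood further from the rest in Grx2-/-. Its ratio to the median of the other ATPases was 0.601, 0.642 and 0.631 in Grx2+/+ and 0.362, 0.426 and 0.407 in Grx2-/-. On average the ratio in Grx2-/- was 0.636 of that in Grx2+/+, and the groups did not overlap. The coefficient of variation across the 6 ATPases was 29.1% in Grx2+/+ and 37.5% in Grx2-/-. The fall of Psmc6 held under all 17 alternatives. Of the rises, those of Psmc2 and Psmc1 did not pass when any single library other than Grx2+/+ replicate 2 was left out, with adjusted p by limma of 0.0575 to 0.124 for Psmc2 and 0.0513 to 0.131 for Psmc1. With quantile normalization they were at -0.0127 and -0.0121. Psmc5 did not pass with either other scaling, Psmc3 did not pass with median-of-ratios scaling and Psmc4 did not pass with quantile normalization.

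Of the 11 other regulatory particle genes 5 rose (45.5%) and 1 fell (9.09%), against 42.7% and 24.6% over all tested genes, and 5 did not pass. Psmd1, the largest scaffold subunit, rose most, from 61.0, 61.3 and 60.8 FPKM to 72.9, 69.2 and 69.6. The Grx2+/+ libraries were nearly equal and all below the Grx2-/- libraries, with a log2 fold change of 0.21 ± 0.03 and an adjusted p of 0.000692 by limma. Psmd8, a lid subunit, was the most abundant proteasome transcript per length in Grx2+/+, with 166, 156.5 and 160.1 FPKM, and had 128, 146.5 and 136.5 in Grx2-/-. Every Grx2-/- library lay below every Grx2+/+ library, with a log2 fold change of -0.23 ± 0.05 and an adjusted p of 0.00407 by limma, and ranked 7 among the proteasome genes in Grx2-/-. Psmd2, Psmd12, Psmd13 and Psmd14 rose by 0.13 to 0.19 on the log2 scale. Psmd14, the deubiquitinase of the lid, had 68.0, 67.6 and 65.9 FPKM against 78.1, 73.6 and 69.8. It did not pass when any single library other than Grx2-/- replicate 3 was left out (adjusted p by limma 0.0523 to 0.09625). The ubiquitin receptor Psmd4 and the structural subunits Psmd3, Psmd6, Psmd7 and Psmd11 did not pass, at -0.06 to 0.07. Psmd2, Psmd12 and Psmd14 did not pass with either other scaling, and Psmd13 did not pass with quantile normalization.

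Among the activators and inhibitors 4 of 6 genes rose, 1 fell and 1 did not pass, with a median log2 fold change of 0.29. With median-of-ratios scaling 4 rose and the median was 0.20, and after quantile normalization 3 rose and the median was 0.17, while 1 fell under each. Psme1 and Psme2 encode the PA28 alpha and beta subunits, an interferon-inducible cap. Psme1 went from 42.7, 41.3 and 39.6 FPKM in Grx2+/+ to 51.35, 52.5 and 52.3 in Grx2-/-, a log2 fold change of 0.33 ± 0.04 with an adjusted p of 8.91e-05 by limma. Psme2 went from 47.1, 47.35 and 50.1 FPKM to 63.9, 62.6 and 63.9, a log2 fold change of 0.39 ± 0.03 with an adjusted p of 2.63e-05 by limma. Both genes were higher in every Grx2-/- library than in any Grx2+/+ library. Relative to the core particle, their sum went from 0.0578 ± 0.0009 to 0.0688 ± 0.0016 (SD, n = 3), 1.19-fold, with an exact permutation p of 0.1, two-sided, the smallest possible.

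Psme2b is a near copy of Psme2, and reads of the pair are hard to assign. Its levels were 14.05, 16.2 and 15.5 FPKM in Grx2+/+ and 20.7, 21.45 and 22.2 in Grx2-/-, a log2 fold change of 0.47 ± 0.06 with an adjusted p of 0.000141 by limma. The coding sequences, both 720 bases long in the GENCODE vM21 transcripts, are identical at 715 positions, with a longest identical run of 311 bases. A read over a mismatched base could tell the genes apart, and noncoding bases were not compared. Coding bases 454 to 543 are shown, 5′ to 3′, because they hold 3 of the 5 mismatches, with the mismatched bases in capitals.
Psme2: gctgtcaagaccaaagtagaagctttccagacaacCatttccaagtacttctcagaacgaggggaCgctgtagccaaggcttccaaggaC
Psme2b: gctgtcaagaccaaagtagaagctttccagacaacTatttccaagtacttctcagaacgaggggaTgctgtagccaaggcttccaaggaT
How the authors' counting split reads between them is not given in the sources used here, so the level of either gene alone is uncertain. The sum of the pair avoids most of that question and was 61.1, 63.5 and 65.6 FPKM in Grx2+/+ and 84.6, 84.1 and 86.1 in Grx2-/-, 1.34-fold higher with no overlap.

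Psme3, the PA28 gamma subunit of the nucleus, had 36.8, 36.6 and 37.0 FPKM in Grx2+/+ and 37.8, 38.9 and 39.0 in Grx2-/-. The groups did not overlap, but the log2 fold change of 0.07 ± 0.03 did not pass (adjusted p = 0.0900 by limma). Psme4 encodes PA200, a large nuclear cap known for its part in histone turnover and spermatogenesis. It fell from 20.1, 21.6 and 20.2 FPKM to 11.7, 13.4 and 13.4, the largest fall among the tested proteasome genes. Every Grx2-/- library was far below the Grx2+/+ libraries, with a log2 fold change of -0.65 ± 0.06 and an adjusted p of 2.74e-05 by limma. Relative to the core particle, Psme4 went from 0.0133 ± 0.0004 to 0.00763 ± 0.0005 (SD, n = 3). Psmf1, which encodes the inhibitor and adaptor PI31, rose from 8.39, 8.73 and 7.60 FPKM to 9.96, 9.93 and 9.91. Its Grx2-/- libraries were nearly equal and above all Grx2+/+ libraries, with a log2 fold change of 0.25 ± 0.05 and an adjusted p of 0.00425 by limma, and 0.0588 with quantile normalization.

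**Figure D3:**
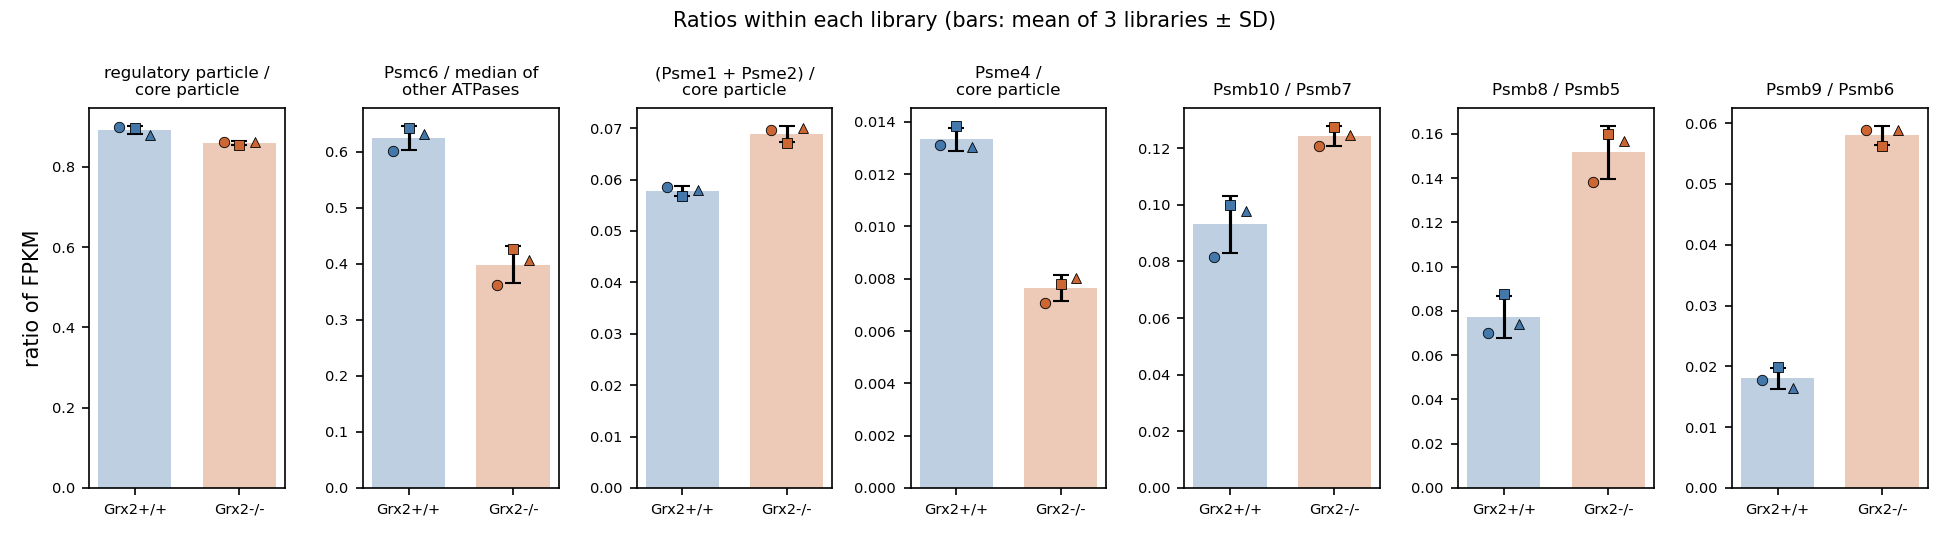
Ratios of FPKM within each library, with circles, squares and triangles for replicates 1, 2 and 3 and bars for the mean ± SD of 3 libraries. The inducible subunits Psmb8, Psmb9 and Psmb10 and the PA28 subunits rose relative to their reference in Grx2-/-, while the ratio of Psme4 to the core went from 0.0133 to 0.00763 and that of Psmc6 to the other ATPases from 0.624 to 0.398.

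Of the 7 assembly factors 5 rose (71.4%, against 42.7% of all tested genes), none fell and 2 did not pass, with a median log2 fold change of 0.18. With median-of-ratios scaling and quantile normalization 2 rose and none fell, and the median was 0.10 and 0.05. Under these scalings 34.3% and 30.8% of all tested genes were called higher. Psmg1 to Psmg4 encode the chaperones that build the alpha ring. Psmg4 had 11.7, 10.9 and 7.80 FPKM in Grx2+/+, from 179 to 265 reads, and 14.6, 15.5 and 14.2 in Grx2-/-. Its Grx2+/+ replicate 3 stood low, but the groups were separate, with a log2 fold change of 0.52 ± 0.13 and an adjusted p of 0.00668 by limma. Psmg1 had 18.7, 18.8 and 19.1 FPKM against 22.6, 21.6 and 20.7. Its Grx2-/- libraries were all higher, with a log2 fold change of 0.19 ± 0.04 and an adjusted p of 0.00417 by limma. Psmg2, the partner of Psmg1, had 17.45, 19.6 and 16.8 FPKM against 20.4, 19.6 and 21.1, and the groups overlapped. It passed at 0.17 ± 0.06 (adjusted p = 0.0328 by limma), but not without Grx2+/+ replicate 1 or 3 or Grx2-/- replicate 1 or 3, where the adjusted p was 0.0949, 0.12, 0.0600 and 0.111. Psmg3, the partner of Psmg4, had 13.4, 14.9 and 12.9 FPKM against 15.25, 15.1 and 13.8. Groups overlapped, and the log2 fold change of 0.09 ± 0.06 did not pass (adjusted p = 0.215 by limma).

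Psmd5, Psmd9 and Psmd10 encode chaperones of the ATPase ring and, despite their names, are absent from the finished particle. Psmd9 rose from 11.2, 11.3 and 10.35 FPKM to 14.2, 14.4 and 15.1. Groups were well apart, with a log2 fold change of 0.39 ± 0.05 and an adjusted p of 0.000165 by limma. Psmd10, also known as gankyrin, had 14.97, 15.7 and 16.9 FPKM against 18.6, 17.8 and 18.0. It was higher in each Grx2-/- library, by 0.18 ± 0.05 with an adjusted p of 0.011 by limma. Psmd5 had 29.7, 29.7 and 27.9 FPKM against 32.55, 30.05 and 30.8. Its groups came close without overlap, and the log2 fold change of 0.09 ± 0.04 did not pass (adjusted p = 0.0872 by limma). The rises of Psmg1, Psmg2 and Psmd10 did not pass with either other scaling.

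Of 38 listed partner and regulator genes 36 were tested: 14 rose, 6 fell and 16 did not pass, with a median log2 fold change of 0.06. With median-of-ratios scaling 13 fell, and with quantile normalization 15 fell. Among direct partners 5 of 13 rose (38.5%) and 2 fell (15.4%), against 42.7% and 24.6% over all tested genes. With either other scaling 3 rose, while 3 fell after median-of-ratios scaling and 5 after quantile normalization. Pomp, the chaperone that starts the beta ring and is used up in each new core particle, rose from 106, 112.5 and 112 FPKM to 154, 157 and 154. Its groups were far apart, with a log2 fold change of 0.49 and an adjusted p of 5.79e-06 by limma. Zfand2a, a heat- and arsenite-inducible proteasome partner, rose from 12.1 to 21.1 FPKM, by 0.76 on the log2 scale (adjusted p = 1.74e-06 by limma). Ecpas, a scaffold that binds proteasomes, fell by 0.39 on the log2 scale, from 12.2 to 9.12 FPKM (adjusted p = 8.54e-05 by limma). These 3 held their call under all 17 alternatives.

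Of 9 tested transcription regulators 5 rose (55.6%) and 1 fell (11.1%), against 42.7% and 24.6% over all tested genes. This count depended on scaling: median-of-ratios scaling called 5 higher but 3 lower. Calls after quantile normalization were 4 higher, 3 lower. Ddi2 and Bach1 were the genes called lower only under these scalings. Nfe2l1, which encodes NRF1, had 88.75, 83.7 and 86.5 FPKM in Grx2+/+ and 72.9, 60.7 and 65.2 in Grx2-/-. It fell with no overlap, by 0.38 on the log2 scale (adjusted p = 0.000935 by limma). Nfe2l2, which encodes NRF2, had 54.8, 55.0 and 53.2 FPKM against 73.4, 64.9 and 67.7. It rose with no overlap, by 0.33 on the log2 scale (adjusted p = 0.000396 by limma). Keap1, the adaptor that targets NRF2 for degradation, rose by 0.37, and the small MAF partner Maff rose from 4.47 to 12.1 FPKM (adjusted p = 2.05e-05 by limma). All 4 calls held under the 17 alternatives. NRF1 and NRF2 are regulated mainly as proteins, which RNA levels do not measure. For comparison, 17 of 20 listed NRF2 target genes rose (85.0%, against 42.7% of all tested genes), and Slc7a11 and Me1 fell. With either other scaling 17 rose and 3 fell. The median log2 fold change of the 20 was 1.05, which is 0.96 above that of all tested genes, while the proteasome median was 0.07 above it. The part of NRF1 or NRF2 in the proteasome changes was not tested.

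Of 14 genes for ubiquitin supply, activation and shuttling 4 rose (28.6%), 3 fell (21.4%) and 7 did not pass, against 42.7% higher and 24.6% lower over all tested genes. With either other scaling 3 rose and 7 fell, and the median log2 fold change was -0.11 with median-of-ratios scaling and -0.10 with quantile normalization, against -0.02 as deposited. Ubb, a polyubiquitin gene, rose from 296, 306 and 303 FPKM to 391, 386 and 395, by 0.37 on the log2 scale (adjusted p = 1.19e-05 by limma). Vcp, the segregase that extracts ubiquitinated proteins, rose from 186, 179.7 and 175 FPKM to 210.1, 209.9 and 216, by 0.24 (adjusted p = 0.000374 by limma). Both genes were higher in each Grx2-/- library than in any Grx2+/+ library. Uba6, an alternative ubiquitin-activating enzyme, fell from 10.9, 12.8 and 11.4 FPKM to 5.12, 7.95 and 7.04. Its groups did not overlap, the log2 fold change was -0.74 and the adjusted p 0.00133 by limma.

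**Figure D4:**
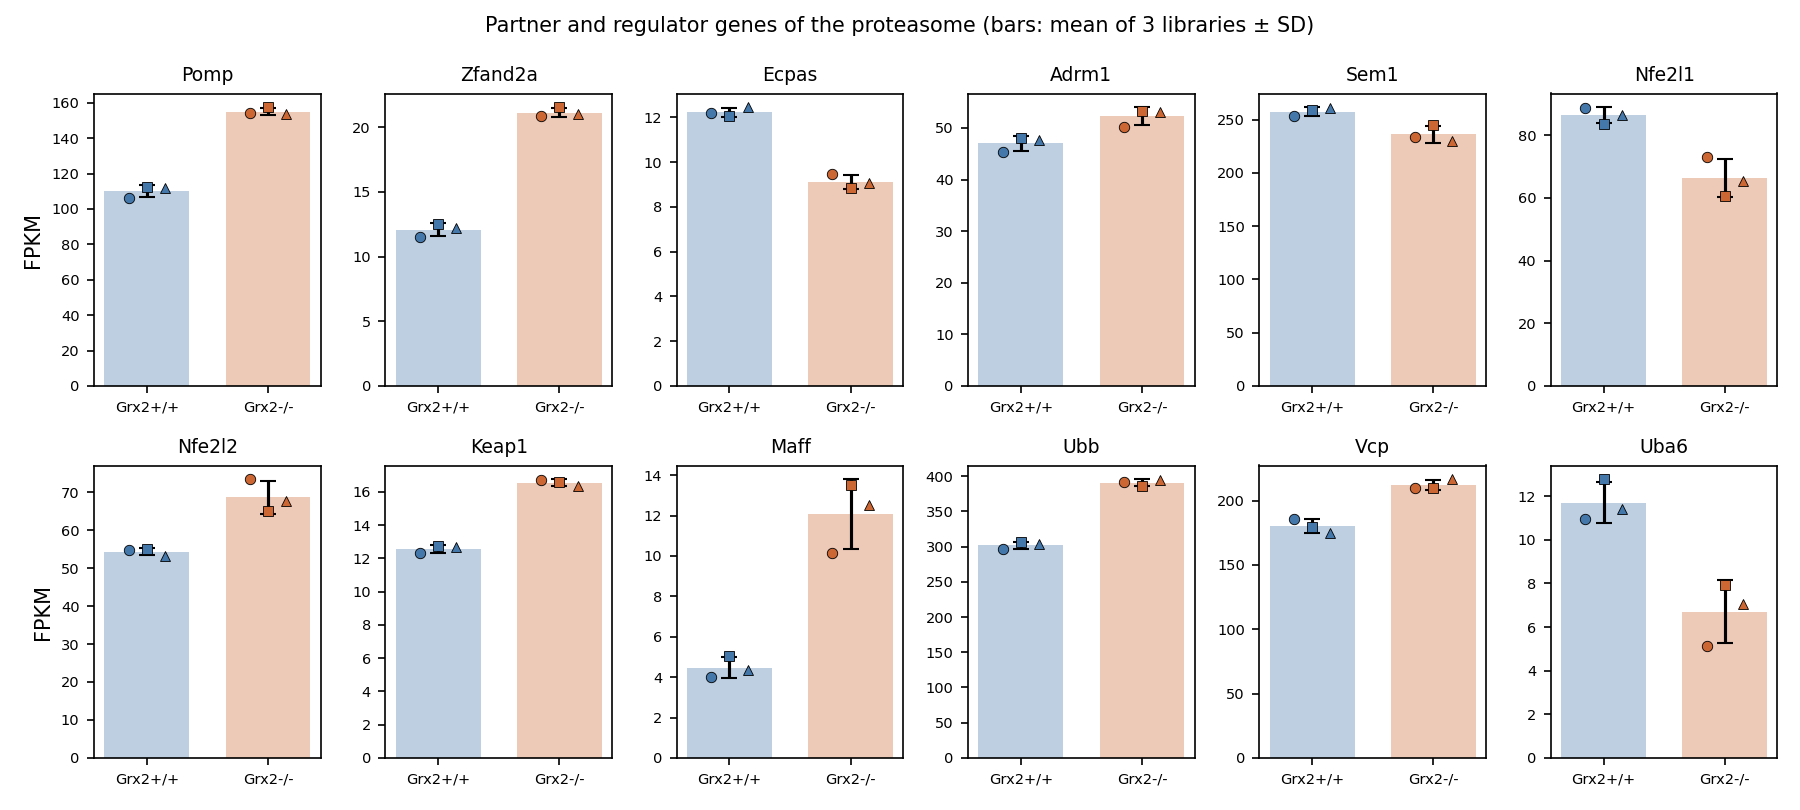
FPKM of 12 partner and regulator genes of the proteasome in each library, with circles, squares and triangles for replicates 1, 2 and 3 and bars for the mean ± SD of 3 libraries per genotype. Pomp, Zfand2a, Maff and Ubb stand higher and Ecpas, Nfe2l1 and Uba6 lower in every Grx2-/- library than in any Grx2+/+ library.

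Promoter sequence was read for 39 of the 47 genes from RefSeq windows of GRCm38.p6, 250 bases before to 50 after each start. Both strands were searched for TGACNNNGC, the core of the antioxidant response element that NRF1 and NRF2 bind, and 6 of 39 genes (15.4%) held it, against 14.0% of 27025 genes with such windows. The share among proteasome genes was thus near that of all genes. The 40-base stretches around the 6 matches are shown because these are the windows in which NRF1 or NRF2 could bind by these letters, written 5′ to 3′ on the strand of the gene with the match in capitals. The Psmb5 stretch is chr14:54618019-54618058 on the minus strand. On the plus strand lie those of Psmb6 at chr11:70525317-70525356, Psmd9 at chr5:123228143-123228182, Psmd12 at chr11:107479278-107479317, Psmc6 at chr14:45329581-45329620 and Psme4 at chr11:30771737-30771776. In Psmd12, Psmc6 and Psme4 the motif reads on the opposite strand.
Psmb5: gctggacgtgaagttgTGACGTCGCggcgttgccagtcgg
Psmb6: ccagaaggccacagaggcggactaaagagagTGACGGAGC
Psmd9: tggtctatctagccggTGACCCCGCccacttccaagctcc
Psmd12: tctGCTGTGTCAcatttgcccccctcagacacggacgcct
Psmc6: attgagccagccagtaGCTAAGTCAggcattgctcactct
Psme4: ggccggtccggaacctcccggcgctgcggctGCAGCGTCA
The match begins 47 bases before the start in Psmb5, 9 in Psmb6, 31 in Psmd9, 247 in Psmd12, 227 in Psmc6 and 7 in Psme4. Of these 6 genes Psmb5, Psmb6, Psmd9 and Psmd12 rose, while Psmc6 and Psme4 had the largest falls among the tested proteasome genes. Of all 45 tested proteasome genes 64.4% were called higher. The rises of Psmb6 and Psmd12 did not pass with either other scaling. A link between the motif and the direction of change was not tested.

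Other motifs were searched on both strands in the same windows. The GC box GGGCGG was found in 22 of 39 genes (56.4%, against 38.2% of all genes), and CCAAT in 13 (33.3%, against 41.1%). The interferon-stimulated response element core (GAAA, any pair of bases, GAAA) was found in 5 genes (12.8%, against 3.99%): Psmb3, Psmd4, Psmd9, Psme1 and Psmg4. Of these Psmd9, Psme1 and Psmg4 rose, and Psmb3 and Psmd4 did not pass, while 64.4% of all 45 tested proteasome genes were called higher. The windows of Psmb10 and Psme2, which rose by 0.48 and 0.39 on the log2 scale, did not hold this core. A link between this core and the direction of change was not tested. The gamma-interferon activation site core TTCNNNGAA was found in 2 genes (5.13%, against 9.55%) and TGACGTCA in none (0%, against 2.03%). In Psmd9 the antioxidant core overlaps a GC box, the only such overlap between motifs.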

How the data were processed

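RNA of 6 libraries, 3 Grx2+/+ and 3 Grx2-/- by the genotype in the labels, was sequenced from libraries made with the VAHTS Universal V6 kit, per the labels' protocols. The authors deposited FPKM values, with a column for each library and 22984 genes. The build was GRCm39 and the tools named are HTSeq, HISAT2 and R 3.2.0, per the submitters' processing notes. Annotation, strand and the versions of HTSeq and HISAT2 were not given in the sources used here. Reads of a gene and an antisense partner may therefore be mixed. The design text calls the cells O-BMSCs without expanding the prefix. Values were used as deposited, and FPKM does not correct for a shift in composition between libraries.

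Whole reads were recovered from the FPKM steps for all 22984 genes within 0.001 reads, which gave the depth. Intervals on reads cover counting error only.

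Genes with a mean of at least 1 FPKM (11083, 45 of the 47 proteasome genes) were fitted as log2(FPKM + 1) with limma 3.58.1 in R 4.3.3 (eBayes with trend), two-sided, with Benjamini-Hochberg adjustment. The log2(FPKM + 1) scale understates the change of low genes. Sums and ratios within a library were compared by exact permutation tests, two-sided. The members, gene lists and tests were chosen with earlier results of these data known. Values per library are given for the catalytic subunits and Psmb10, activators, assembly factors, the extremes of each subgroup and genes under the filter. For each partner list the 3 genes with the smallest p are named, except that some genes the rule allows are not reported here, and Nfe2l1, Uba6, B2m, Erap1, Irf1 and the stromal markers named were chosen after their values were seen.

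The script was tested on simulated data. The 17 alternatives were pseudocounts of 0.1 and 0.01, no filter, a mean of at least 5 FPKM, median-of-ratios scaling, quantile normalization, eBayes without trend or with robust estimation, the replicate number as a block, voom on the recovered reads, each library left out, and Grx2+/+ replicate 2 and Grx2-/- replicate 1 left out together. Promoter windows are those of RefSeq for GRCm38.p6, and coding sequences are from GENCODE vM21. Both are of another build than the submitters' own, so no gene coordinates are given beyond the printed stretches.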

Additional observations from a re-analysis of the deposited data

How the results depend on the processing

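Scaling moved the most results. With median-of-ratios scaling and quantile normalization in turn, 14 and 11 proteasome genes rose, 5 and 4 in the core, 3 and 2 in the regulatory particle and 2 and 2 among the assembly factors, while 2 core genes fell under each, and 13 and 15 partner and regulator genes fell. The summed FPKM of the regulatory particle turned to -0.0261 (log2) with median-of-ratios scaling. These scalings turned the sign of genes with small changes: Psma2 to -0.0551 and -0.0219, Psmb3 to -0.0758 and -0.046, Psmd3 to -0.0369 and -0.0797, Psmd4 to -0.042 and -0.0743, Psmd6 to -0.0164 and -0.0549, Psmd7 to -0.0676 and -0.0847 and Psme3 to -0.0221 and -0.0653. With median-of-ratios scaling alone Psmb1 turned to -0.0123 and Psmb7 to -0.0047. With quantile normalization alone Psma4 turned to -0.0033, Psmc1 to -0.0121, Psmc2 to -0.0127, Psmd5 to -0.0412 and Psmg3 to -0.0504. Psma3 and Psmd11 were called lower under both. Both scalings set the centre of all genes near 0, and which scaling is nearer the amounts per cell was not tested.

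With no filter 2 core genes fell, since Psma8 was then tested. With 1 library left out, 22 to 29 proteasome genes rose and 4 to 5 fell, 1 to 2 of them in the core, and 3 to 7 partner and regulator genes fell, 3 without Grx2-/- replicate 3. Psmb3 ranged from -0.0102 without Grx2-/- replicate 2 to 0.0502 without Grx2-/- replicate 1. With both libraries that stood apart left out, 31 proteasome genes rose and 4 fell, and 8 partner and regulator genes fell. Of the 33 calls, 14 held in all 17 alternatives, and 10 of the 12 genes that did not pass changed sign in at least 1.

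Replicate numbers are shared between the genotypes, but the labels do not say that a number marks a shared animal or day. Same-numbered libraries correlated in their deviations at 0.11, 0.12 and 0.02, and Grx2+/+ replicate 3 correlated best with Grx2-/- replicate 1, at 0.06. With the replicate number as a block 28 proteasome genes rose and 4 fell, and Psmc1 was the gene that lost its call. At this depth each tested proteasome gene had at least 179 reads in every library.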
